A study of Mus musculus with 18 samples.

Results

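The comparison described here set 3 libraries of brown adipocytes given isoproterenol (ISO), a pan β-adrenergic receptor agonist, directly against 3 libraries given SR-3420, a ligand of the lipase co-activator ABHD5, with the lipases inhibited in both groups. The sample titles name the groups Lipase Inh. + ISO and, for the ABHD5 ligand, Lipase Inh. + SR-3420, and they make up 6 of the 18 RNA-seq libraries of the study. All cells came from BAT-LgT, 1 wild-type line of mouse brown preadipocytes carrying the SV40 large T antigen, and had been differentiated with dexamethasone, 3-isobutyl-1-methylxanthine, T3 and insulin. On day 7, inhibitors of ATGL and HSL, the lipases that act in turn on triglyceride and diglyceride (Atglistatin and CAY10499 in the study's legends), were added for 1 h, and the agent followed for 3 h. ISO was given at 100 nM. SR-3420 was given at 10 µM by its labels. The study's figure legends print another value, and which applies to these libraries was not settled. The study describes independent experiments, in 1 cell line, so the p-values measure the spread between experiments on that line. A further group of 3 libraries, Lipase Inh. + Vehicle (DMSO), received the inhibitors and no agent, and the groups ISO and SR-3420, with 3 libraries each, received the same agents without inhibitors.

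β-adrenergic receptors couple through a stimulatory G protein to adenylyl cyclases, and the cAMP they make is sensed mainly by protein kinase A (PKA). PKA acts on transcription through CREB and its coactivators, and on lipid droplets by phosphorylating HSL and perilipin, which releases ABHD5 so that it can activate ATGL. SR-3420 binds ABHD5 and frees it from perilipin with no receptor involved, so both agents meet at ATGL, which the inhibitors block in all 6 libraries. In brown adipocytes cAMP is best known for inducing Ucp1, the mitochondrial uncoupling protein of thermogenesis.

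The 6 libraries held between 4263755 and 21205032 counts. Lipase Inh. + SR-3420 replicate 2 stood apart, as it had the lowest total of all 18 libraries and Lars2, a mitochondrial leucyl-tRNA synthetase, took 18.3% of its counts (95% Wilson interval 18.3% to 18.4%), against 0.0397% to 0.121% in the other 17. The counts of called genes were therefore also computed without this library. The adipocyte label held in the markers, as all 10 adipocyte genes were measured. Adipoq, the adipocyte hormone adiponectin, stood at 3197, 3212 and 3583 CPM (counts scaled to library size) with ISO and at 3309.5, 3147 and 2854 with SR-3420. None of the 10 was called different by edgeR or DESeq2, and 6 met the adjusted p at a smaller size in edgeR. Among all genes tested, 5.34% were called higher with ISO and 7.85% higher with SR-3420. At any fold 28.6% and 28.3% met the adjusted p, so the counts for these 10 genes were near the shares of all genes. The same shares stand beside the marker lists that follow. The summed level of the 10 genes was 34258 to 37566 CPM with ISO and 23584 to 25641 with SR-3420, a gap that Lpl, lipoprotein lipase, carried with 23678, 21467 and 24868 against 10937, 11011 and 13651 CPM. Of 12 preadipocyte and fibroblast markers 11 were tested, Ly6a was called higher with ISO (9.63, 6.87 and 7.7 against 3.78, 4.53 and 2.8 CPM), and the list summed to 314 to 407 against 406 to 459 CPM. Of 9 leukocyte markers 2 were tested and Ptprc, which defines leukocytes, had 0 counts in all 6 libraries; Cd14 was called higher with ISO, and the list summed to 9.68 to 13.2 against 5.05 to 5.92 CPM. Of 9 endothelial and muscle markers 3 were tested, with Myod1 called higher with ISO and Myh11 higher with SR-3420, and sums of 3.75 to 4.21 against 6.68 to 10.1 CPM. No marker of dividing cells was called (10 of 10 tested, sums of 1045 to 1347 against 1077 to 1418 CPM). The part of these cells in the results was not tested, and in bulk RNA fewer cells of a type and less RNA per cell cannot be told apart.

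Promoters of 3 genes at the ends of the comparison are shown for the letters that cAMP and stress factors are known to read. CREB binds the cAMP response element (CRE), the palindrome TGACGTCA, and its half-site TGACG, which lies inside it, and ATF4 binds elements with the core TGATGCAA. Both strands were searched in the RefSeq promoters of build GRCm38.p6, from 250 bases before to 50 after each start. Nr4a3 and Ucp1, the genes with the largest differences toward ISO among those named by level, are shown because each holds half-sites and no full CRE in this window, a choice made after their sequences were seen, and Chac1, among the largest toward SR-3420, because it was the 1 of the 22 named genes with a promoter in the table that held an ATF4 core. None of these 22 held a full CRE. The 250 bases before the start are printed in the direction of transcription, with the half-sites of Nr4a3 and Ucp1 and the ATF4 core of Chac1 in capitals. Chac1 also holds a half-site, at the very beginning of its printed sequence, which is left in lower case. Half-sites were not particular to the ISO side. Slco2b1, toward SR-3420, held one as well, as did Uap1 and Dos toward ISO, while Vdr, Cldn1, Gfpt2, Adcy3, Cyp2ab1 and Krt13 toward ISO held none.
Nr4a3 (chr4:48045055-48045304, + strand): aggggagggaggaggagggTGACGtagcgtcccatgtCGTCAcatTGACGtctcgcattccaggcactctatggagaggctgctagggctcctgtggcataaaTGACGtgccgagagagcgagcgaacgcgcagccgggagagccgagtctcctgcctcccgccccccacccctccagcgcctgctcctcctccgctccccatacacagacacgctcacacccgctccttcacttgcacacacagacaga
Ucp1 (chr8:83290098-83290347, + strand): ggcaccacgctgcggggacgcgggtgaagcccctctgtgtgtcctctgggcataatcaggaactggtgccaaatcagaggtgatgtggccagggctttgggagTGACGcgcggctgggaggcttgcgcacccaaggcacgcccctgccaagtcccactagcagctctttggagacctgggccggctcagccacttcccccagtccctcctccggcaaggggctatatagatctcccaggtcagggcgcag
Chac1 (chr2:119350992-119351241, + strand): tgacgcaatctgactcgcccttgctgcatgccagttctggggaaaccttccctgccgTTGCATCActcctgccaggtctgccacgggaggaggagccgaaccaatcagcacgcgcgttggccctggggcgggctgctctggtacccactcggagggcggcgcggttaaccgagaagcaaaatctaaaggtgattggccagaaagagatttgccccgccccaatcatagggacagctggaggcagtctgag

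Nr4a3 held 4 half-sites, starting 231, 213, 205 and 147 bases before the start (the one at 213 on the other strand), Ucp1 held 1 at 147 bases, and the ATF4 core of Chac1 lay 193 bases before its start, also on the other strand. Such a match is a description and not a bound site. Across the comparison, a full CRE was found for 19 of 503 genes called higher with ISO that had a promoter in the table (3.78%), for 10 of 731 called higher with SR-3420 (1.37%) and for 354 of all 9725 tested genes with a promoter (3.64%). The half-site was found for 35% of the first, 26.7% of the second and 35.6% of the tested genes. The ATF4 core was found for 1.39%, 1.23% and 0.72%. The share of CRE-holding promoters among genes higher with ISO was thus close to that of all tested genes, and the lower share stood among genes higher with SR-3420. For the whole table of 27025 genes the shares were 2.03%, 23% and 1.03%.

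With lipases inhibited, ISO and SR-3420 left the cells with widely different transcriptomes. Of 12156 genes tested, 649 were called higher with ISO (5.34%) and 954 higher with SR-3420 (7.85%) where a call needed an adjusted p no higher than 0.05 and a difference of 2-fold or more. At any fold the same adjusted p was met by 3480 genes toward ISO (28.6%) and 3439 toward SR-3420 (28.3%). At least 4-fold differences were about as many each way, 139 toward ISO and 144 toward SR-3420. Above that the ISO side held more: 48 genes were at least 8-fold and 21 at least 16-fold higher with ISO, against 23 and 2 higher with SR-3420. The last 2, Lars2 and Hist1h4d, rested on the shallow library alone. Of the 23, Hist1h2bf (-3.82), Hist2h4 (-3.57), Hist1h3e (-3.37) and Hist1h3b (-3.07) were also not called without it. The same held for some of the 144, such as Hist1h2bj (-2.83) and Hist1h2bb (-2.66). These counts by fold were not repeated without that library. The median gene differed by -0.01 on the log2 scale, and the called genes had a median of 1.40 toward ISO and 1.37 toward SR-3420. Between the groups, 1549 of the 1603 called genes did not overlap in any library, which was also true of 60.9% of all genes tested. Without Lipase Inh. + SR-3420 replicate 2, 673 genes were called higher with ISO and 923 higher with SR-3420, 614 and 864 of them shared with the full set. Scaling by total counts moved the median gene by -0.13 and the calls to 500 and 1241, so that 28.7% in place of 40.5% were higher with ISO, and directions are given relative to the TMM scaling.

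**Figure D1:**
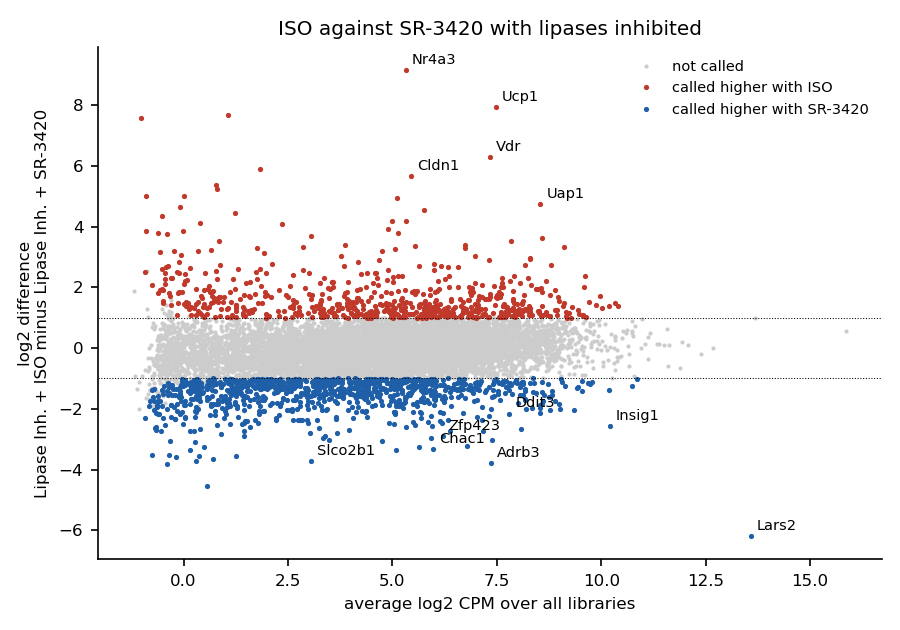
Log2 difference (Lipase Inh. + ISO minus Lipase Inh. + SR-3420, vertical axis) of each of the 12156 genes tested against its average log2 CPM over all libraries (horizontal axis), with dotted lines at the fold threshold of 1. Red points are the 649 genes called higher with ISO, blue points the 954 called higher with SR-3420 and grey points the rest. Nr4a3, Ucp1 and Vdr lie highest among the well-measured genes, and Lars2, which rests on 1 library, lies lowest.

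Vdr, Ucp1 and Ddit3 mark the 2 sides of the comparison. Vdr, the nuclear receptor for vitamin D (chr15:97684858-97738727, mm9), was at 831, 816 and 822 CPM in replicates 1 to 3 of Lipase Inh. + ISO and at 10.0, 10.9 and 10.6 CPM with SR-3420. The 3 ISO libraries were tight and all far above the others, with a 78.7-fold difference (log2 difference 6.30 ± 0.10, adjusted p = 1.7e-21). In Lipase Inh. + Vehicle it was at 11.4 to 12.3 CPM, and SR-3420 differed from that by -0.19 ± 0.11 (adjusted p = 0.437). Ucp1 (chr8:85814247-85822355, mm9) was at 683, 789 and 553 CPM with ISO and at 3.24, 3.46 and 2.23 with SR-3420, the latter from 84 counts in all (243-fold, log2 difference 7.92 ± 0.30, adjusted p = 2.53e-15). Its ISO libraries spread more than those of Vdr and still lay wholly above every SR-3420 library. Ddit3 (chr10:126727849-126733344, mm9), which encodes CHOP, a transcription factor of the stress response, went the other way at 56.9, 56.9 and 56.4 CPM with ISO and 263, 250.2 and 247 with SR-3420 (4.47-fold higher with SR-3420, log2 difference -2.16 ± 0.08, adjusted p = 1.78e-15). Here the vehicle group at 157, 144 and 169 CPM lay between the 2 agents: against it ISO gave a log2 difference of -1.47 ± 0.08 and SR-3420 one of 0.69 ± 0.07 (adjusted p = 5.53e-06). The 3 differences hardly moved without Lipase Inh. + SR-3420 replicate 2, at 6.31, 7.98 and -2.17.

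**Figure D2:**
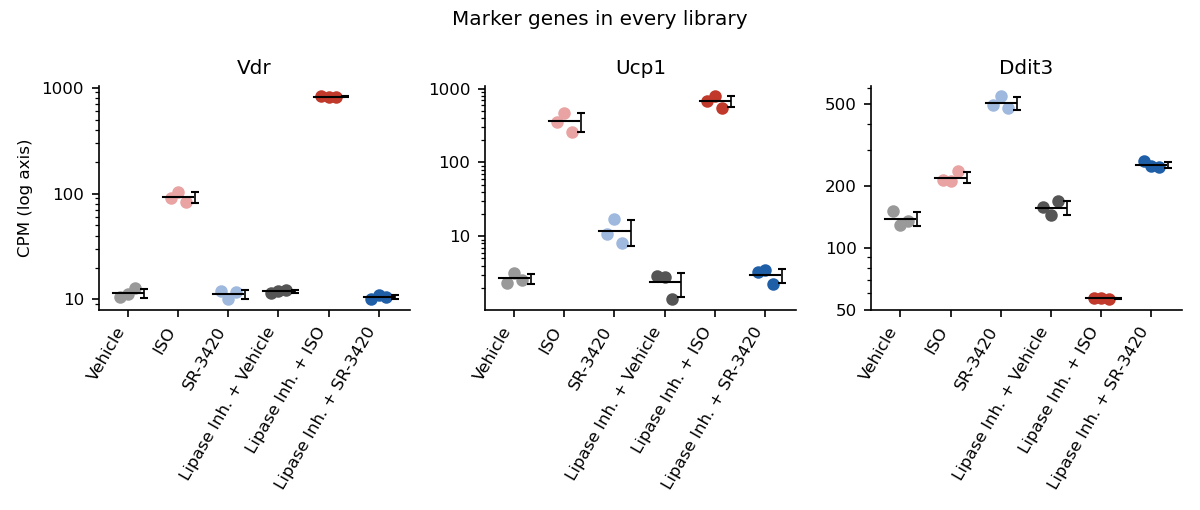
CPM on a log axis of Vdr, Ucp1 and Ddit3 in the 3 libraries of each of the 6 groups (points), with the mean as a horizontal bar and ± 1 SD beside it. With inhibitors, the ISO libraries of Vdr (816 to 831 CPM) and Ucp1 (553 to 789 CPM) lie far above those of SR-3420, and the order is turned around for Ddit3 (56.4 to 56.9 against 247 to 263 CPM).

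Genes were ranked by size where they had an average log2 CPM of at least 3 over all libraries, no overlap, and a call also without the shallow library. A gene can reach that average through the groups where it is high. The largest difference toward ISO was that of Nr4a3, an orphan nuclear receptor and immediate early gene. It was at 125, 99.1 and 125 CPM with ISO and at 0.27, 0 and 0.191 with SR-3420. There it had only 6 counts over the 3 libraries, so it was not well measured in that group and the fitted difference of 9.15 ± 0.28 is imprecise in size. Behind Ucp1 and Vdr followed Cldn1, a tight junction protein, with 200.4, 199.6 and 195 against 4.33, 4.8 and 3.37 CPM (50.2-fold, log2 difference 5.65 ± 0.14, adjusted p = 5.73e-18). A pair of enzymes of the hexosamine pathway, which makes UDP-N-acetylglucosamine for glycosylation, came next. Gfpt2, which catalyses the first step, was at 158, 169.5 and 149 against 4.69, 4.26 and 5.73 CPM (log2 difference 4.95 ± 0.19, adjusted p = 4.28e-15). Uap1, which catalyses the last step, was at 1594, 1682 and 1577 against 58.3, 60.2 and 62 CPM (log2 difference 4.75 ± 0.13, adjusted p = 2.78e-17). Absence of overlap between the groups was a condition for naming both. Adcy3, an adenylyl cyclase, was at 128, 129 and 115 against 8.11, 6.4 and 5.92 CPM (log2 difference 4.18 ± 0.14, adjusted p = 3.14e-16). The remaining genes of this group were Dos (23.4-fold), Lrrn4cl (18.4-fold), Gprc5a, an orphan G protein-coupled receptor (15.3-fold), Cyp2ab1, a cytochrome P450 (13.9-fold), and Krt13, a keratin (12.8-fold), with adjusted p-values from 2.28e-17 to 3.58e-09. In each of these 12 genes the SR-3420 libraries lay near those of Lipase Inh. + Vehicle, and none of the 12 was called between these groups (log2 differences from -0.36 to 0.46).

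In the other direction, the gene with the largest difference was Adrb3, the β3-adrenergic receptor that adipocytes of rodents chiefly use. It was at 23.5, 24.5 and 21.9 CPM with ISO and at 324, 370.2 and 267 with SR-3420, 13.7-fold higher (log2 difference -3.78 ± 0.17, adjusted p = 9.03e-14), and at 227, 293 and 183 in the vehicle group. The vehicle and SR-3420 libraries overlapped while the ISO libraries lay far below both. Slco2b1, an organic anion transporter, was at 0.63, 1.01 and 1.27 against 15.4, 16 and 10.8 CPM (log2 difference -3.73 ± 0.22, adjusted p = 4.83e-12). Pik3ip1, which restrains phosphatidylinositol 3-kinase, was at 3.96, 4.3 and 6.44 against 54.1, 57.8 and 46.3 CPM (log2 difference -3.35 ± 0.15, adjusted p = 5.39e-14). Chac1, an enzyme that degrades glutathione and a known target of ATF4, was at 9.18, 8.24 and 5.73 against 82.3, 75.9 and 68.1 CPM (log2 difference -3.33 ± 0.14, adjusted p = 2.62e-14). Its vehicle level of 32.6 to 39.1 CPM lay between the agents, and SR-3420 was called above it (adjusted p = 5.89e-06). Ffar2, a receptor for short-chain fatty acids, had the same order, at 3.51, 5.86 and 4.46 with ISO, 16.8 to 24.6 with vehicle and 41.4, 35.7 and 37.1 CPM with SR-3420. Tppp, a tubulin-binding protein (9.47-fold), 4632428N05Rik (9.39-fold), Gprin3 (8.22-fold), Mmp11, a matrix metalloproteinase (8.16-fold), Rassf6 (7.83-fold), Lpar4, a lysophosphatidic acid receptor (7.73-fold), and Zfp423, a zinc finger factor of adipocyte commitment (7.45-fold), completed the 12, with adjusted p-values from 5.94e-16 to 8.37e-12.

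**Figure D3:**
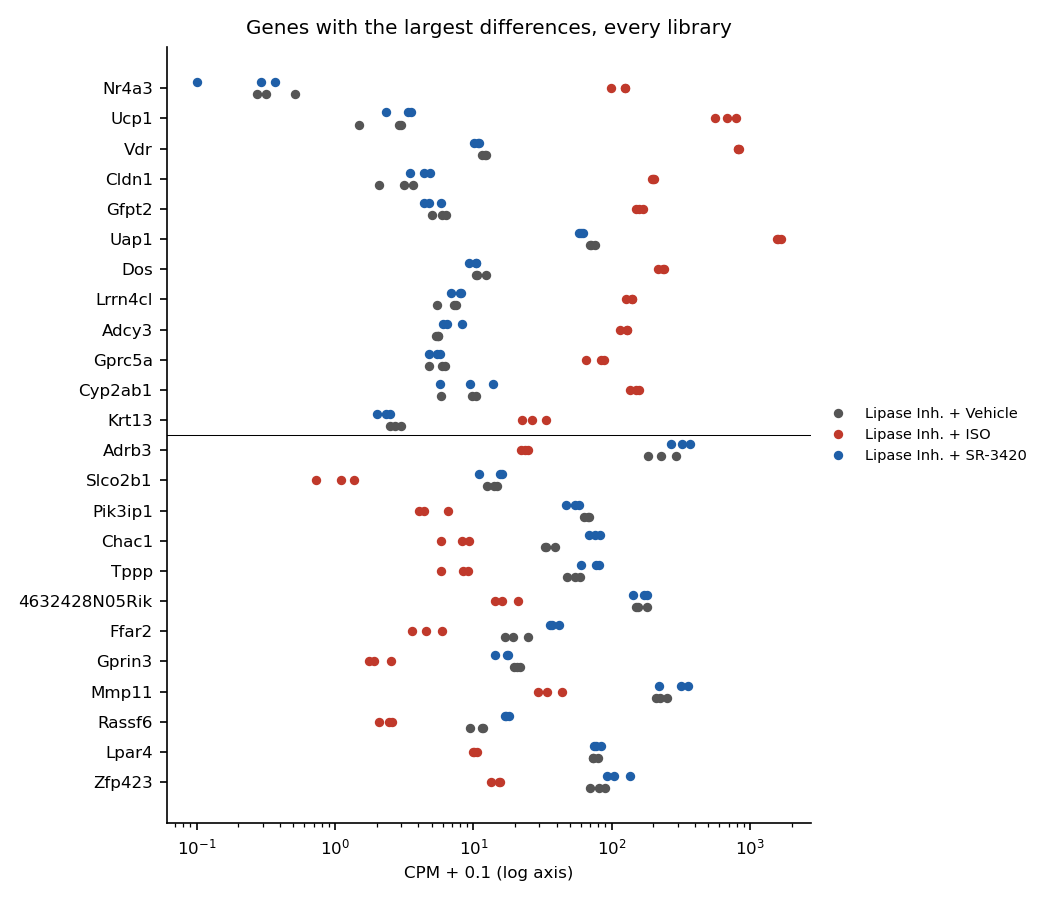
CPM plus 0.1 on a log axis of the 24 genes with the largest differences, 12 toward ISO above the line and 12 toward SR-3420 below it, with 1 point per library of Lipase Inh. + Vehicle (grey), Lipase Inh. + ISO (red) and Lipase Inh. + SR-3420 (blue). The genes were chosen for having no overlap of red and blue points, so that gap was fixed by the choice. For most genes the grey points lie near the blue ones, as for Vdr (11.4 to 12.3 and 10.0 to 10.9 CPM).

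The receptors and cyclases that start the cAMP pathway held a few calls in both directions. Of 20 members tested, 2 were called higher with ISO and 3 higher with SR-3420, beside 5.34% and 7.85% of all genes. The list median was -0.10 against -0.01 for all genes. Adrb3, described above, was among the 3 higher with SR-3420. Adrb1, the β1 receptor, was higher at 16.3, 24.2 and 15.8 against 11.1, 9.86 and 9.35 CPM, under the fold threshold (log2 difference 0.88 ± 0.17, adjusted p = 0.000125). Among the cyclases, Adcy6 was higher with ISO beside Adcy3 (495, 586 and 524 against 189, 197 and 144 CPM, log2 difference 1.61 ± 0.12, adjusted p = 3.32e-10), and Adcy5 was lower (4.32, 3.48 and 4.11 against 12.8, 12 and 9.67 CPM, adjusted p = 2.58e-08). PKA subunits, inhibitors and anchors gave 1 call toward ISO and 2 toward SR-3420 among 19 tested, near the 5.34% and 7.85% of all genes. Prkar1a, a regulatory subunit, was at 941, 941 and 904 against 301, 326 and 331 CPM (log2 difference 1.54 ± 0.06, adjusted p = 3.81e-15), and Akap7, an anchoring protein, differed by -2.12 ± 0.11. The call for Akap6, the other anchor, rested on levels of at most 1.33 CPM and was absent without Lipase Inh. + SR-3420 replicate 2.

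Phosphodiesterases, which break down cyclic nucleotides, leaned toward ISO, with 7 members called higher and 1 lower of 16 tested (median 0.41), beside 5.34% and 7.85% of all genes. Pde4d was at 598, 549 and 603 CPM with ISO and 51.6, 48.2 and 50.3 with SR-3420 (log2 difference 3.54 ± 0.10, adjusted p = 2.68e-17), and already with SR-3420 it exceeded the vehicle group by 0.79 ± 0.10 (adjusted p = 3.23e-05). Pde10a differed by 4.08 ± 0.34 at a low level (0.811 to 2.4 CPM with SR-3420) and Pde7b by 1.74 ± 0.31, and Pde8b was the member higher with SR-3420 (1.89, 3.66 and 3.09 against 4.78, 7.99 and 5.73 CPM). The count toward ISO fell to 4 with total-count scaling and to 5 without Lipase Inh. + SR-3420 replicate 2; Pde12 (1.01), Pde4b (1.02) and Pde3b (1.05) lay at the fold threshold, and so did Pde8b, which was not called without that replicate. In the CREB family with its coactivators and the SIK kinases, 1 of 18 members was called: Crem, whose promoter yields the inducible cAMP repressor ICER, was at 77.3, 74.6 and 77 against 11, 12 and 14.8 CPM (log2 difference 2.57 ± 0.11, adjusted p = 3.58e-14). Of 26 classic cAMP target genes 10 were called higher with ISO and 1 lower, with a median of 0.43; beside Nr4a3, Pde4d and Crem the largest was Nr4a2, another orphan nuclear receptor (28, 21.1 and 25.9 against 5.59, 6.13 and 7.19 CPM, log2 difference 1.97 ± 0.16, adjusted p = 5.45e-10). The exception was Egr1, an immediate early factor, at 36, 35.2 and 37.7 against 94.8, 98.9 and 103 CPM (log2 difference -1.44 ± 0.18, adjusted p = 4.25e-07).

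Brown fat and thermogenic genes gave 8 calls toward ISO and 3 toward SR-3420 among 23 tested (median 0.59), of which 5 and 3 stood with total-count scaling. Of all genes 5.34% and 7.85% were called in these directions. Beside Ucp1, Ffar4, the receptor for long-chain fatty acids also known as GPR120, was at 434, 434 and 452 against 86.9, 83.7 and 96.6 CPM (log2 difference 2.30 ± 0.09, adjusted p = 1.37e-14), and Gyk, glycerol kinase, differed by 2.00 ± 0.10. Ppargc1a, the coactivator PGC-1α of mitochondrial biogenesis, was higher with ISO by a smaller step, 332, 322 and 325 against 136, 143 and 153 CPM (log2 difference 1.18 ± 0.08, adjusted p = 7.85e-11). Toward SR-3420 lay Adrb3, Ppara (-1.60 ± 0.16), a receptor for fatty acids, and Ppargc1b (-1.12 ± 0.13), the related coactivator. The nuclear genes of oxidative phosphorylation showed many small differences of 1 sign: 33 of 38 met the adjusted p toward ISO in edgeR and 0 toward SR-3420 (0 also at an unadjusted p under 0.05, and 0 in DESeq2), against 28.6% and 28.3% of all genes, with 4 of the 33 past the fold threshold and a median of 0.50. With total-count scaling 24 of the 38 still met it, and with DESeq2 32. The largest was Atp5g1, a subunit of ATP synthase (30.5, 39.8 and 28.8 against 12.9, 13.3 and 9.35 CPM, log2 difference 1.52 ± 0.22, adjusted p = 4.98e-06), followed by Atp5d (1.38 ± 0.14) and Cycs, cytochrome c (1.25 ± 0.08).

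The genes of the inhibited lipases and of ABHD5 were well expressed in both groups and none passed the fold threshold. Pnpla2, which encodes ATGL, was at 2091, 1952 and 1999 CPM with ISO and 2074, 1925 and 2017 with SR-3420 (log2 difference 0.01 ± 0.07, adjusted p = 0.947). Lipe, which encodes HSL, was at 1821, 1846 and 1689.8 against 2382, 2384 and 2093 CPM (log2 difference -0.36 ± 0.07, adjusted p = 0.000339), and Abhd5 was at 404, 396 and 359.6 against 189, 198 and 213 CPM, higher with ISO and under the fold threshold (log2 difference 0.95 ± 0.08, adjusted p = 3.35e-09). Plin1, the perilipin that binds ABHD5, differed by 0.14 ± 0.13 (adjusted p = 0.391). Of 23 lipase and lipid droplet genes, 0 were called higher with ISO and 2 higher with SR-3420 in the edgeR fit, although 6 met the adjusted p toward ISO at any fold and DESeq2 called 1. Of all genes 5.34% and 7.85% were called, and 28.6% met the adjusted p toward ISO at any fold. With total-count scaling 4 in place of 2 were called higher with SR-3420. G0s2, an inhibitor of ATGL, was at 174, 207 and 161 against 555, 566 and 469.9 CPM (log2 difference -1.55 ± 0.18, adjusted p = 2.43e-07). Plin2, a coat protein of lipid droplets, was at 172, 167 and 186 against 413, 357 and 393 CPM (log2 difference -1.15 ± 0.11, adjusted p = 1.67e-08).

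Target genes of the fatty acid-activated PPARs divided. Of 28 tested, 4 were called higher with ISO and 5 higher with SR-3420, with a median of 0.09, which turned to -0.03 with total-count scaling, where the calls were 2 and 6. Among all genes 5.34% and 7.85% were called in the main fit. Toward SR-3420 lay Ehhadh, a peroxisomal oxidation enzyme (log2 difference -2.11 ± 0.20, adjusted p = 8.53e-09), and Angptl4, a secreted inhibitor of lipoprotein lipase, at 191, 177 and 232 against 878, 878 and 702 CPM (log2 difference -2.03 ± 0.15, adjusted p = 1.25e-10). Pdk4, the kinase that shuts off pyruvate dehydrogenase, was at 469, 385 and 545 against 1114, 1068 and 1159.6 CPM (log2 difference -1.26 ± 0.09, adjusted p = 1.72e-10), and SR-3420 exceeded the vehicle group by 0.93 ± 0.09 (adjusted p = 2.02e-06). Toward ISO lay Acot4, a peroxisomal thioesterase (log2 difference 2.56 ± 0.21, adjusted p = 1.18e-09), Cyp4b1, measured at no more than 0.76 CPM (1.91 ± 0.76), and Cpt1a, which brings fatty acids into mitochondria (77.8, 63.7 and 81.1 against 27.2, 22.1 and 27.7 CPM). The call for Cyp4b1 was absent without Lipase Inh. + SR-3420 replicate 2. Fgf21, a secreted factor that PPARs and ATF4 induce, was low in both groups, 1.17, 1.28 and 1.27 against 2.07, 1.6 and 1.84 CPM, with a difference of -0.60 ± 0.41 (adjusted p = 0.216).

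Cholesterol synthesis genes, which SREBP-2 drives, were called higher with ISO in 5 and higher with SR-3420 in 1 of 26 tested (median 0.05, -0.07 with total-count scaling, where the calls were 4 and 2). The single gene was Insig1, which holds SREBPs in the endoplasmic reticulum (ER), and its libraries lay close together at 184, 200.1 and 175 CPM with ISO, 1114, 1076 and 1133 with SR-3420 and 1269, 1408 and 1201 CPM with vehicle (log2 difference -2.57 ± 0.08, adjusted p = 8.5e-17). Its homologue Insig2 lay on the other side (1.62 ± 0.11), as did the pathway enzymes Pmvk (240.2, 289 and 268 against 52.2, 38.4 and 34.5 CPM, log2 difference 2.67 ± 0.17, adjusted p = 2.25e-11), Hsd17b7 (2.13 ± 0.07) and Idi1 (1.60 ± 0.10). For fatty acid synthesis 1 gene of 20 was called toward ISO, Elovl6 (1.08 ± 0.11), and 3 toward SR-3420, namely Thrsp (164, 167 and 153 against 576, 572 and 469 CPM, log2 difference -1.74 ± 0.12, adjusted p = 8.63e-11), Fads3 (-1.55 ± 0.10) and Srebf1, which encodes SREBP-1 (-1.20 ± 0.08). The call for Elovl6 was absent with total-count scaling. Across all genes 5.34% were called toward ISO and 7.85% toward SR-3420. Triglyceride synthesis genes had 3 calls toward ISO and 1 toward SR-3420 of 20 tested. Acsl4, a long-chain acyl-CoA synthetase, was at 887, 903 and 839 against 109, 116 and 123 CPM (log2 difference 2.92 ± 0.12, adjusted p = 1.2e-14) and Dgat1, which completes triglyceride, at 791, 919 and 853 against 208, 213 and 143 (log2 difference 2.20 ± 0.17, adjusted p = 4.41e-10). Slc27a1, a fatty acid transporter, lay the other way (-1.44 ± 0.09).

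Of 40 genes of the integrated stress response, which ATF4 and CHOP carry out, 8 were called higher with SR-3420 and 1 higher with ISO, where 7.85% and 5.34% of all genes were, and at any fold 21 and 4 met the adjusted p, where 28.3% and 28.6% of all genes did (list median -0.29). Beside Chac1 and Ddit3 the largest were Trib3, a pseudokinase (64.6, 64.4 and 52.6 against 422, 375 and 356 CPM, log2 difference -2.67 ± 0.10, adjusted p = 2.26e-15), and Slc6a9, a glycine transporter (log2 difference -2.51 ± 0.16, adjusted p = 2.81e-11). Atf4 itself was at 401, 469 and 360.2 against 554, 527 and 514 CPM, without overlap and under the fold threshold (log2 difference -0.38 ± 0.08, adjusted p = 0.000327). Ddit4, an inhibitor of mTOR that cAMP and glucocorticoids also raise, was the exception toward ISO (417, 503 and 408 against 98.6, 72 and 84.2 CPM, log2 difference 2.36 ± 0.13, adjusted p = 9.77e-13). ER chaperone, folding and degradation genes had 1 call toward ISO and 2 toward SR-3420 of 34, no more than the shares of all genes. At any fold 17 lay toward ISO and 10 toward SR-3420 (14 and 10 with total-count scaling), the latter close to the 28.3% of all genes (list median 0.21). Xbp1, a transcription factor of the unfolded protein response (UPR), was at 568, 552 and 535 against 185, 195 and 189 CPM (log2 difference 1.54 ± 0.06, adjusted p = 4.38e-15). Hspa5, the chaperone BiP, was at 1439, 1487 and 1427 against 765, 706 and 803 CPM (log2 difference 0.94 ± 0.07, adjusted p = 2.33e-10), while Herpud1 (-1.66 ± 0.13) and Derl3 (-1.25 ± 0.27), of ER-associated degradation, were higher with SR-3420. Cytosolic heat shock genes leaned toward ISO, with 5 calls to 0 among 24 (15 to 2 at any fold, and 1 call toward SR-3420 with total-count scaling). Dnaja4, a co-chaperone, was at 74.6, 88 and 83.3 against 8.2, 8.26 and 9.1 CPM (log2 difference 3.25 ± 0.16, adjusted p = 1.54e-13), ahead of Hsph1 (1.73 ± 0.19) and Bag3 (1.66 ± 0.10). The 24 UPR markers that the study lists had 2 calls each way, near the 5.34% and 7.85% of all genes. They were Dnaja4 and Klf4 (1.29 ± 0.18) toward ISO, and Ddit3 and Thbs1 (215 to 265 against 468 to 555 CPM) toward SR-3420.

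**Figure D4:**
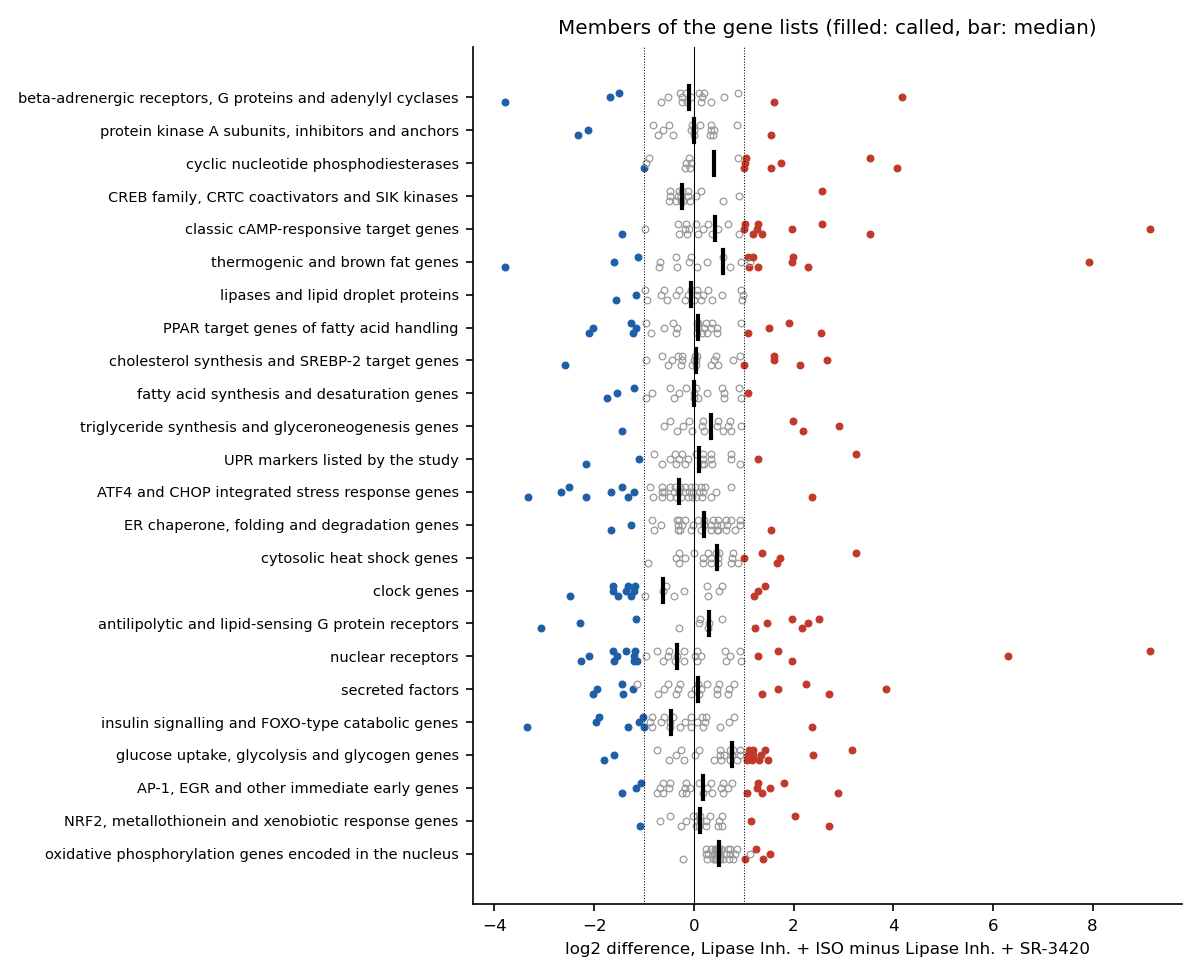
Log2 difference (Lipase Inh. + ISO minus Lipase Inh. + SR-3420) of the tested members of 24 gene lists, 1 point per gene, filled red or blue where called and open where not, with a black bar at the list median and dotted lines at the fold threshold. The medians run from -0.62 for clock genes to 0.78 for glycolysis, and most lists hold called members on both sides.

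Clock genes had the lowest median of the lists (-0.62), with 9 of 21 called higher with SR-3420 and 3 higher with ISO, beside 7.85% and 5.34% of all genes. Against Lipase Inh. + Vehicle the list median was -0.59 for ISO and 0.13 for SR-3420. The genes toward SR-3420 included several that the CLOCK and BMAL1 proteins are known to activate through E-boxes: Per3, a clock repressor, at 21.1, 15 and 22.6 against 110.3, 96.2 and 121 CPM (log2 difference -2.48 ± 0.18, adjusted p = 1.16e-10), Nr1d1 or Rev-erbα (-1.62 ± 0.11), and the factors Dbp (-1.53 ± 0.16), Hlf (-1.62 ± 0.22) and Tef (-1.27 ± 0.10). Toward ISO lay Arntl, which encodes BMAL1, at 49.2, 55.7 and 47.7 against 18.9, 22.1 and 17.3 CPM (log2 difference 1.42 ± 0.12, adjusted p = 1.95e-09), with Csnk1d (1.28 ± 0.07), a kinase of the period proteins, and Nfil3 (1.21 ± 0.08), a repressor. Among 33 nuclear receptors 5 were called higher with ISO and 10 higher with SR-3420 (median -0.33). Beside the clock receptors and Ppara, the latter held Esr1, the oestrogen receptor α (4.41, 5.31 and 5.83 against 25.1, 21.3 and 27.4 CPM, log2 difference -2.25 ± 0.19, adjusted p = 1.26e-09), and Nr3c2, the mineralocorticoid receptor (-2.10 ± 0.65). Toward ISO, Nr4a3, Vdr and Nr4a2 led, followed by Esrra (1.68 ± 0.21), a receptor of mitochondrial gene control.

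Carbohydrate genes lay mostly toward ISO. Of 33 genes of glucose uptake, glycolysis and glycogen, 12 were called higher with ISO and 2 higher with SR-3420, beside 5.34% and 7.85% of all genes. The median of 0.78 was the highest of the lists shown. Slc16a3, the lactate exporter MCT4, was at 55.4, 64.7 and 65.4 against 7.3, 7.99 and 5.98 CPM (log2 difference 3.18 ± 0.13, adjusted p = 1.07e-14). Pkm, pyruvate kinase, differed by 1.49 ± 0.09 (adjusted p = 4.07e-12), while Gapdh (2.39 ± 0.13) has many near-identical pseudogenes and its value is uncertain. Slc2a3, the glucose transporter GLUT3 (-1.81 ± 0.27), and Pygb, a glycogen phosphorylase (-1.61 ± 0.09), lay toward SR-3420. Genes of insulin signalling and of the catabolic FOXO type lay mostly the other way (median -0.45). Against Lipase Inh. + Vehicle their median was -0.52 for ISO and 0.10 for SR-3420. Of 28 tested, 1, Ddit4, was called higher with ISO and 7 were called higher with SR-3420. Pik3ip1 led them, followed by Trp53inp1 (-1.96 ± 0.10) and Fbxo32, a ubiquitin ligase of muscle wasting (13.4, 9.25 and 21.6 against 56.1, 52.2 and 62.7 CPM, log2 difference -1.91 ± 0.23, adjusted p = 2.65e-07).

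Receptors for antilipolytic and lipid signals were called in both directions, 6 toward ISO and 3 toward SR-3420 of 15 tested, where 5.34% and 7.85% of all genes were. A pair of adenosine receptors lay on opposite sides: Adora2a, which couples to the stimulatory G protein, was at 2.52, 1.56 and 2.13 against 0.541, 0 and 0.318 CPM (log2 difference 2.51 ± 0.50, adjusted p = 0.00022), and Adora1, which couples to the inhibitory one, at 34.4, 33.9 and 35.7 against 169, 184 and 155 CPM (log2 difference -2.28 ± 0.10, adjusted p = 2.53e-14). Secreted factors split evenly, 5 to 5 of 29. Il6, the cytokine interleukin 6, was low but did not overlap (1.8, 2.2 and 2.08 against 0.0901, 0.266 and 0.127 CPM, log2 difference 3.85 ± 0.55, adjusted p = 3.86e-06), and Fgf10, a growth factor of preadipocytes, was at 38.7, 37.1 and 45.2 against 5.41, 6.4 and 6.74 CPM (log2 difference 2.71 ± 0.13, adjusted p = 1.86e-13). Metrnl, or meteorin-like, differed by 2.25 ± 0.19. Angptl4, Fgf1 (-1.94 ± 0.22) and the stress hormone Gdf15 were the largest toward SR-3420, the last at 12.6, 14.5 and 8.82 against 37.2, 26.9 and 29.3 CPM (log2 difference -1.44 ± 0.18, adjusted p = 6.24e-07). Of 22 tested genes of the NRF2 and xenobiotic responses 3 were called higher with ISO and 1 higher with SR-3420, beside 5.34% and 7.85% of all genes. Srxn1, sulfiredoxin, was at 1384, 1451 and 1216 against 217, 202 and 196 CPM (log2 difference 2.72 ± 0.15, adjusted p = 2.5e-12), with Gclc, of glutathione synthesis (2.02 ± 0.10), and Hmox1, heme oxygenase 1 (1.15 ± 0.23), on the same side and the efflux pump Abcc4 (-1.07 ± 0.10) on the other.

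Both agents were also set against Lipase Inh. + Vehicle, a group the comparisons share. ISO gave 660 genes higher (5.43%) and 928 lower (7.63%), and SR-3420 gave 26 higher (0.214%) and 10 lower (0.0823%). Without Lipase Inh. + SR-3420 replicate 2 the latter counts were 21 and 8, of which 17 and 7 were shared. Among the 26, Ffar4 was higher by 1.22 ± 0.10 (adjusted p = 1.58e-07), Pck1, of glyceroneogenesis, by 1.27 ± 0.18 (adjusted p = 0.00012), Pfkfb3, a regulator of glycolysis, by 1.12 ± 0.07 (adjusted p = 4.57e-09), Gdf15 by 1.14 ± 0.18 (adjusted p = 0.000298) and Nr4a1 by 1.06 ± 0.12 (adjusted p = 7.73e-06). At an unadjusted p under 0.05 and any fold, 1184 genes were higher and 722 lower with SR-3420 than with vehicle. The ISO values of the same genes against vehicle were 3.52, 1.76, 1.52, -0.30 and 2.34. These 5 were named after their values in this contrast were seen. Lars2, Hist1h4d, Hist2h4 and Hist1h2bj, also among the 26, were not called without replicate 2; in Lars2 that library stood at 208404 CPM and the others of its group at 589 and 1103. In the direct comparison with ISO, 5 calls turned their sign without replicate 2, those of Lars2 (from -6.18 to 0.19), Hist1h1a, Hist1h4a, Hist1h4d and Hist1h4k. A further 43 calls toward SR-3420 and 11 toward ISO no longer met the adjusted p, and 42 and 24 fell under the fold threshold. Among the 43 were other histone genes, such as Hist1h1e, Hist1h2bf and Hist1h3e. The histone genes have near-identical copies.

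The same agents without inhibitors, in 6 other libraries, differed in far fewer genes: 149 were called higher with ISO (1.23%) and 99 higher with SR-3420 (0.814%). Of the genes called toward ISO, 112 were called in both settings, which is 17.3% of those with inhibitors and 75.2% of those without. Toward SR-3420 it was 44 genes, 4.61% and 44.4%. The test of the change itself, (ISO minus SR-3420) with inhibitors minus the same without, called 355 genes positive (2.92%) and 540 negative (4.44%). Vdr was one of the largest positive changes, at 3.26 ± 0.13 (adjusted p = 3.43e-13): ISO alone gave 90.6, 104 and 83 CPM and SR-3420 alone 12.1, 10.0 and 11.7, so the wider gap came with a higher ISO level under inhibitors. Gfpt2 (3.48 ± 0.27), Cyp2ab1 (3.15 ± 0.27) and Uap1 (2.98 ± 0.17) had the same pattern, Uap1 with 300.4, 397 and 244 CPM for ISO and 91.8, 103 and 83 for SR-3420 without inhibitors. Ucp1 also widened, by 2.95 ± 0.40, from 359, 474 and 257 against 10.7, 16.9 and 8.13 CPM without inhibitors. Here the ISO level was higher and the SR-3420 level lower with inhibitors. On the log2 scale the SR-3420 side moved more, at a level that rested on 84 counts. For Adrb3 the agents alone gave 82.1, 74.7 and 83.9 CPM for ISO and 99.9, 88.7 and 90.8 for SR-3420, and a difference between them of -0.22 ± 0.16 (adjusted p = 0.317); the change was -3.56 ± 0.23 (adjusted p = 2.4e-10). Insig1 was at 1931, 1751 and 1862 and 1775, 1716 and 1819 CPM without inhibitors, so that only the ISO group with inhibitors was low (change -2.64 ± 0.10). Ddit3 changed by -0.96 ± 0.10, with 213, 211 and 235 CPM for ISO and 493, 547 and 478 for SR-3420 alone, and was higher with SR-3420 in both settings.

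Ppargc1a narrowed instead. ISO alone gave 1063, 1011 and 1167 CPM and SR-3420 alone 159, 147 and 149, and with inhibitors they gave 332, 322 and 325 and 136, 143 and 153, a change of -1.65 ± 0.11 (adjusted p = 8.15e-10). The median of the immediate early genes changed its sign: 15 of 31 had a positive change and 1 a negative one (2.92% and 4.44% of all genes), with a median difference of -0.54 without inhibitors and 0.19 with them, the latter 0.07 with total-count scaling. Egr1, called toward SR-3420 in both settings, came closer to even, at 204, 285 and 127 CPM with ISO and 1539, 1584 and 1402 with SR-3420 without inhibitors, against 36, 35.2 and 37.7 and 94.8, 98.9 and 103 with them. Arc (3.07 ± 0.25) and Fosb (2.83 ± 0.48) were called toward SR-3420 without inhibitors and toward ISO with them, as were 3 other genes, and Fosl1 (2.89 ± 0.19) and Dusp5 (1.81 ± 0.16) were among the 7 of this list called toward ISO with inhibitors. For oxidative phosphorylation genes edgeR called 0 of 38 changes (7 had an unadjusted p under 0.05), with medians of 0.51 without and 0.50 with inhibitors, while 8 of 21 clock genes had a negative one and 1 a positive one (4.44% and 2.92% of all genes).

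**Figure D5:**
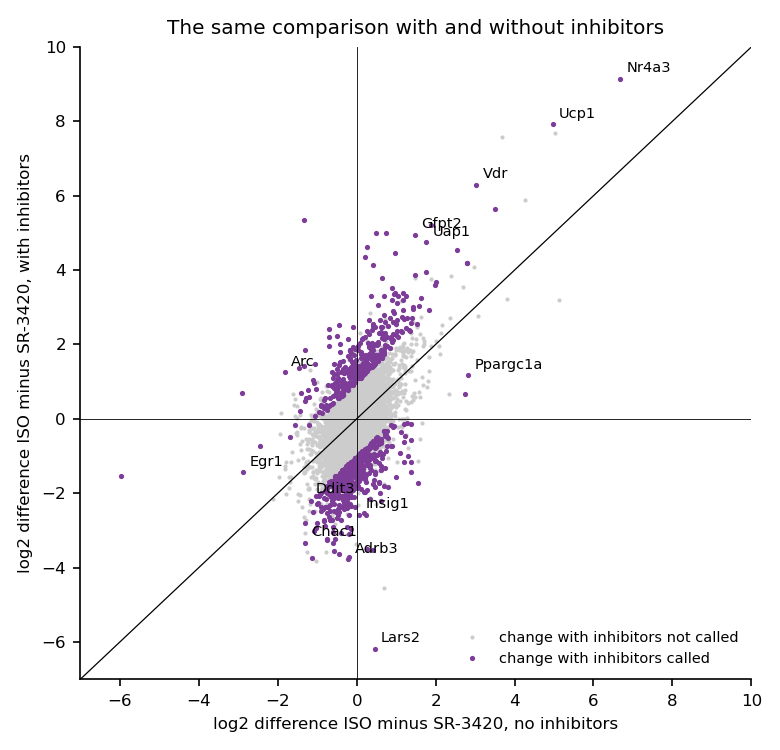
Log2 difference between ISO and SR-3420 with inhibitors (vertical axis) against the same difference without inhibitors (horizontal axis) for the 12156 genes tested, with the line of equal values; the 2 axes share no library. Purple points are the 895 genes whose change with inhibitors was called, and 828 of them lie farther from zero on the vertical axis, as Vdr does (6.30 against 3.03).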

How the data were processed

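The 18 samples were RNA-seq libraries of BAT-LgT brown adipocytes, of which 6 are compared here. The authors aligned the reads to mm9 with STAR 2.4.2a, made HOMER tag directories that kept 1 read per position and length, and deposited raw counts per RefSeq gene from iRNA-seq, without normalization; whether counting used strand is not given in the sources used here. The table held 20295 genes and 0 columns of other samples. Genes were filtered with filterByExpr (minimum count 10, minimum total 15), scaled by TMM and tested with edgeR 4.0.16 (quasi-likelihood, R 4.3.3, 1 fit over all 18 libraries, Benjamini-Hochberg adjustment over 12156 genes). All adjusted p-values are from edgeR unless DESeq2 1.42.0 is named. A gene was called at an adjusted p of at most 0.05 and an absolute log2 difference of at least 1. Values are log2 differences ± SE, CPM are TMM-scaled per library in replicate order, and levels are not compared between genes.

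Members, gene lists and tests were chosen with earlier results of these data known. Named were Vdr, Ucp1 and Ddit3, the 12 genes per direction with the largest called differences (average log2 CPM of at least 3, no overlap, called also without Lipase Inh. + SR-3420 replicate 2), up to 3 members per direction and list, the 5 per direction with the largest change with inhibitors, and a fixed set including Atf4, Hspa5, Pnpla2, Lipe, Abhd5, Plin1, Fgf21 and Lars2. Other names (Nr4a1, Pck1, Pfkfb3, Dbp, Tef, Idi1, Esrra, Pde8b, Pde12, Pde4b, Pde3b, Hist2h4 and Hist1h2bj among them) were chosen after their values were seen. In simulated data for the comparison, 199 of 200 genes with a 3-fold change were recovered (99.5%, 12020 genes tested), with 4 others called. Only well-counted genes were changed, all genes had the same fixed dispersion (spread beyond counting error), and no library had an aberrant composition. The share recovered checks the procedure and does not measure sensitivity in the real libraries. Totals ran from 4263755 to 21205032 counts, and intervals cover counting error only. Alternatives were DESeq2, other scaling, no filter, a test against the fold threshold (glmTreat), thinning, a replicate block and leaving out libraries.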

Additional observations from a re-analysis of the deposited data

Results flagged for a closer look

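The difference between ISO and SR-3420 itself differed between cells with and without lipase inhibitors, by an interaction term of the edgeR fit, in 355 genes with a positive and 540 with a negative change. Most genes below were named for a large difference or change, so their values are a description. On the log2 scale, the change of the genes with the largest differences toward ISO was 3.26 for Vdr, 2.95 for Ucp1, 2.48 for Nr4a3, 2.15 for Cldn1, 3.48 for Gfpt2, 2.98 for Uap1, 2.02 for Dos, 1.40 for Lrrn4cl, 1.38 for Adcy3, 2.18 for Gprc5a, 3.15 for Cyp2ab1 and 1.68 for Krt13. Toward SR-3420 it was -3.56 for Adrb3, -2.60 for Slco2b1, -2.75 for Pik3ip1, -2.03 for Chac1, -2.50 for Tppp, -2.69 for 4632428N05Rik, -2.65 for Ffar2, -2.43 for Gprin3, -1.96 for Mmp11, -2.84 for Rassf6, -1.91 for Lpar4 and -2.30 for Zfp423. Insig1 changed by -2.64, Crem by 1.21, Ppargc1a by -1.65, Adrb1 by 1.17, Arc by 3.07 and Tmeff1 by -2.84. The value of -6.63 for Lars2 rested on Lipase Inh. + SR-3420 replicate 2 alone.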

How the results depend on the processing

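In the comparison of ISO with SR-3420 under inhibitors, the counts of 649 and 954 kept within 1.5 times under DESeq2 (639 and 974), other scaling, no filter, thinning (569 and 869) and single libraries left out (608 to 687 and 908 to 980), while a test against the fold threshold (glmTreat) left 333 and 371, and 100 and 111 for the change with inhibitors (without single libraries 327 to 384 and 505 to 579). For ISO against inhibited vehicle glmTreat gave 363 and 362, total counts 439 and 1436, and single libraries left out 637 to 696 and 874 to 980. For SR-3420 against inhibited vehicle, 26 genes higher became 16 with total counts, 48 without the filter and 21 to 40 with single libraries left out (40 without replicate 3), and glmTreat called 0 and 0, with 40 genes at an unadjusted p under 0.05; DESeq2 called 30 and 8. Without inhibitors glmTreat gave 44 and 8, and total counts 178 genes lower. These alternatives for the last 3 contrasts were chosen after seeing the data. Of 2744 values of named genes 2661 kept direction and call, 48 lost and 34 gained the call, and 1 reversed: Lars2, at 0.19 without Lipase Inh. + SR-3420 replicate 2 and -6.76 without replicate 1. Of 870 list counts under 15 settings 68 moved by over 1.5 times.

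The replicate numbers paired the ISO and SR-3420 libraries with correlations of -0.057, 0.11 and 0.16. Over all pairs of groups the mean was -0.012 for number 1, 0.15 for number 2 (lowest 0.075) and 0.19 for number 3 (lowest 0.11). Libraries that share number 2 or 3 thus had a weak common part, which the main fit left out. With a replicate block the counts were 637 and 955, and for SR-3420 against inhibited vehicle 40 genes were higher. At any fold 7316 genes met the adjusted p in the direct comparison with the block, against 6919 in the main fit. The depth of Lipase Inh. + SR-3420 replicate 2, 4263755 counts, limits genes of low level most.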
